A study of Homo sapiens with 4 samples.

Results

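The histone genes code for the core histones H2A, H2B, H3 and H4, which form the protein spool of the nucleosome, and for the linker histone H1, which sits on the DNA between nucleosomes. Members were taken by symbol, as protein-coding genes whose current or older symbol has a histone prefix, with at least 10 counts in at least 2 of the 4 libraries. Of 20263 genes listed, 91 matched by symbol and 41 passed the count rule. These were 31 of 70 clustered genes (the H2AC, H2BC, H3C and H4C genes and H1-1 to H1-6) and 10 of 21 variant genes (all others). The rule used symbols and a count minimum, and it set no condition on the difference between the groups. A gene could still pass through the libraries of a single group, as H2AC20, H2BC17 and H3C4 did.

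HCT116 is an established human colorectal carcinoma cell line, labelled wild type. RNA was sequenced from cells given the compound HJ-23 at 30 µM for 24 h (2 libraries) and from cells given the solvent DMSO at 0.1% for 24 h (2 libraries). The treatment field of the HJ-23 samples names HJ-25, and the name in their titles and in the design text is used here. Separate dishes for the libraries of a group are not stated in the labels. The p-values therefore measure only how much these libraries vary, and that variation may be technical.

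Clustered histone genes lie in arrays, mainly on chromosomes 6 and 1, and are known as replicative because their transcription and mRNA stability are tied to S phase. Their mRNAs typically end in a short stem-loop in place of a poly(A) tail, which is bound by SLBP, the stem-loop binding protein, and cut by a machinery that contains the U7 small nuclear RNP. Variant histone genes are scattered over the genome, are usually spliced or polyadenylated, and are made outside S phase as well. The variant H3 genes H3-3A and H3-3B both code for the replacement histone H3.

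The libraries held 34406649 and 34831207 counts for HJ-23 and 31120459 and 29769568 counts for DMSO. Of the 8 epithelial markers listed, 5 had at least 10 counts in every library and CDX1 was at 0 in all 4, with a summed level of 4033 and 5499 CPM (counts per 1000000, after scaling of the library totals) in HJ-23 libraries and 4508 and 4080 CPM in DMSO libraries. Of the 12 markers of other cells, PTPRC, CD3E, COL1A2 and DCN were at 0 in all 4 libraries, 4 (HBA1, ACTA2, COL1A1 and VWF) had at least 10 counts in each, and the summed level was 79.1 and 89.5 CPM in HJ-23 libraries and 80.1 and 76.5 CPM in DMSO libraries. Across the 14047 tested genes with an annotated transcript, the log2 fold change had a Spearman correlation of 0.38 with transcript GC content, as a description of these libraries. Its part in the histone values was not tested. Values after a correction for GC content and length are given beside some of the genes that it moved by over 1.5 times.

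The stem-loop was searched in the annotated transcripts, because it is what separates the replicative mRNAs from other mRNAs. The motif, 16 bases with GGNNNT and ANNNCC as the arms of a paired stem (G-T pairs allowed) around the loop NTNN, on the sense strand within 100 bases after the stop codon, was found in 44 of 19922 protein-coding genes (0.221%). It was found in 21 of the 31 clustered genes past the count rule and in 1 variant gene, H2AX, which is known to give both a stem-loop and a polyadenylated mRNA. Of the other clustered genes, 7 have an annotated transcript that ends at the stop codon, so that none could be found there, and 3 (H1-4, H2BC11 and H3C6) have bases after the stop codon and no match within the window. The 16-base stem-loop took 6 forms over the 22 genes, of which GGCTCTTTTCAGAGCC was in 12 genes, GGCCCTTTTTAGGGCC in 3 genes (H4C9, H4C14 and H4C15) and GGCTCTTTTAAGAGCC in 3 genes (H2BC4, H2BC5 and H2BC7). The stretches below belong to genes described further on, with the stem-loop in capitals and 5 bases on each side in lower case, 5′ to 3′ from GENCODE 29 transcripts (H2BC21, H2AC25 and H4C14 on chromosome 1, H2AC6, H2BC4, H2BC5 and H4C9 on chromosome 6, H2AX on chromosome 11).
H2BC21: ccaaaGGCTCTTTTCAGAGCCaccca
H2AC6: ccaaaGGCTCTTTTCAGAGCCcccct
H2AC25: ataaaGGCTCTTTTCAGAGCCaccta
H2BC4: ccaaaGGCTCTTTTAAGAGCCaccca
H2BC5: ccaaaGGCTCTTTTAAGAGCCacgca
H4C9: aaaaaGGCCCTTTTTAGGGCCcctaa
H4C14: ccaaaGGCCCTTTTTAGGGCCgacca
H2AX: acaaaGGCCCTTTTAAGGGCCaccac
The stem-loop began 56 bases after the stop codon in H2BC21, 43 bases in H2AC6, 36 bases in H2BC4 and 33 bases in H4C9. The annotated transcript went on for 1729 bases beyond it in H2BC21, 1114 bases in H2AC6, 116 bases in H2BC4 and 212 bases in H4C9. The deposited counts are per gene and do not tell reads of the stem-loop form from reads of a longer form, and the labels do not state whether the libraries were selected for poly(A).

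No histone gene passed the adjusted threshold in either direction, and the histone genes as a set had more positive than negative differences. Under edgeR's quasi-likelihood test with Benjamini-Hochberg adjustment at 0.05, 0 of the 39 tested histone genes were called, where 12 of 14062 genes were called (0.0853%), 8 of them higher (0.0569%) and 4 lower (0.0284%) in HJ-23. The smallest adjusted p among the histone genes was 0.275 (H2AC20, which passed the count rule through the DMSO libraries alone). DESeq2 also called 0 of the 33 to which it gave an adjusted p, against 311 of 13476 genes over the table (2.31%). At an unadjusted p below 0.05, 9 histone genes were higher in HJ-23, where 6.77% of all genes were, and 2 were lower, where 5.25% were. The log2 fold change was positive for 30 and negative for 9 of the 39 genes, against 51% and 49% of all genes tested. Its median was 0.24 for the histone genes and 0.01 for all genes tested. The groups did not overlap in 21 genes, 16 with HJ-23 above DMSO and 5 with HJ-23 below it, where 46% of all genes did not overlap (24.8% above and 21.2% below). Members are not independent of each other, so these counts describe the set.

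**Figure D1:**
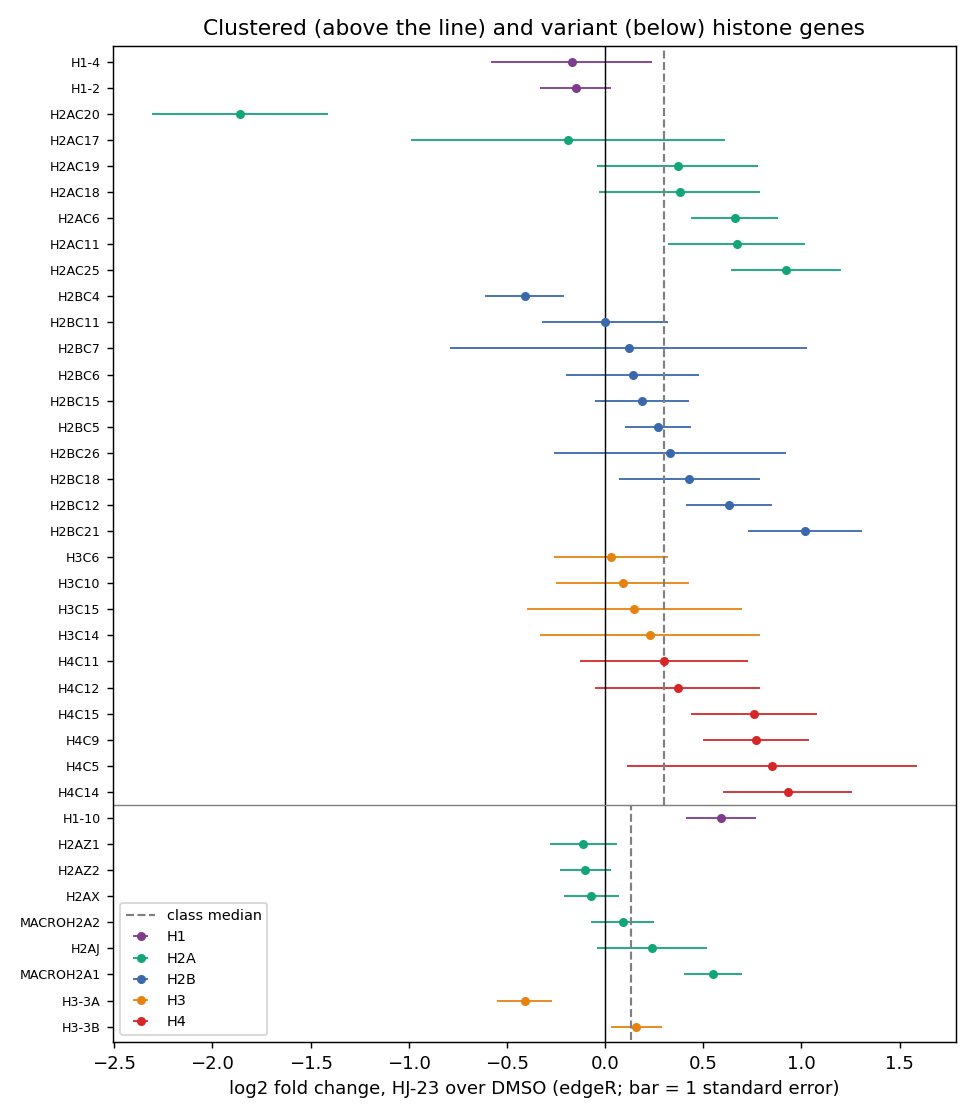
The log2 fold change, HJ-23 over DMSO, of tested histone genes with a bar of 1 standard error, coloured by family, with clustered genes above the line and variant genes below it. The dashed lines are the medians of all tested genes of each class, 0.30 for clustered and 0.13 for variant genes. H2BC21 lies farthest to the right at 1.02 and H2AC20, which entered the set through its DMSO counts alone, farthest to the left at -1.86.

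The clustered genes and the variant genes differed widely in level. Sums run over every gene matched by symbol. All 70 clustered genes together had 128 and 168 CPM in HJ-23 libraries and 121 and 115 CPM in DMSO libraries, which is 0.0132% and 0.0166% of counts in HJ-23 and 0.0121% and 0.0113% in DMSO. The variant genes together had 3275 and 3693 CPM in HJ-23 libraries and 3016 and 2841 CPM in DMSO libraries. Each sum was higher in both HJ-23 libraries than in either DMSO library, by a log2 ratio of 0.33 for the clustered and 0.25 for the variant genes. Within the variant genes the ratio was -0.00 for H2A and 0.02 for H3, so the variant difference lay in the H1 genes. The clustered ratio was 0.10 without HJ-23 replicate 2 and the variant ratio 0.14. In bulk RNA, fewer cells that transcribe a gene and less RNA per cell cannot be told apart.

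**Figure D2:**
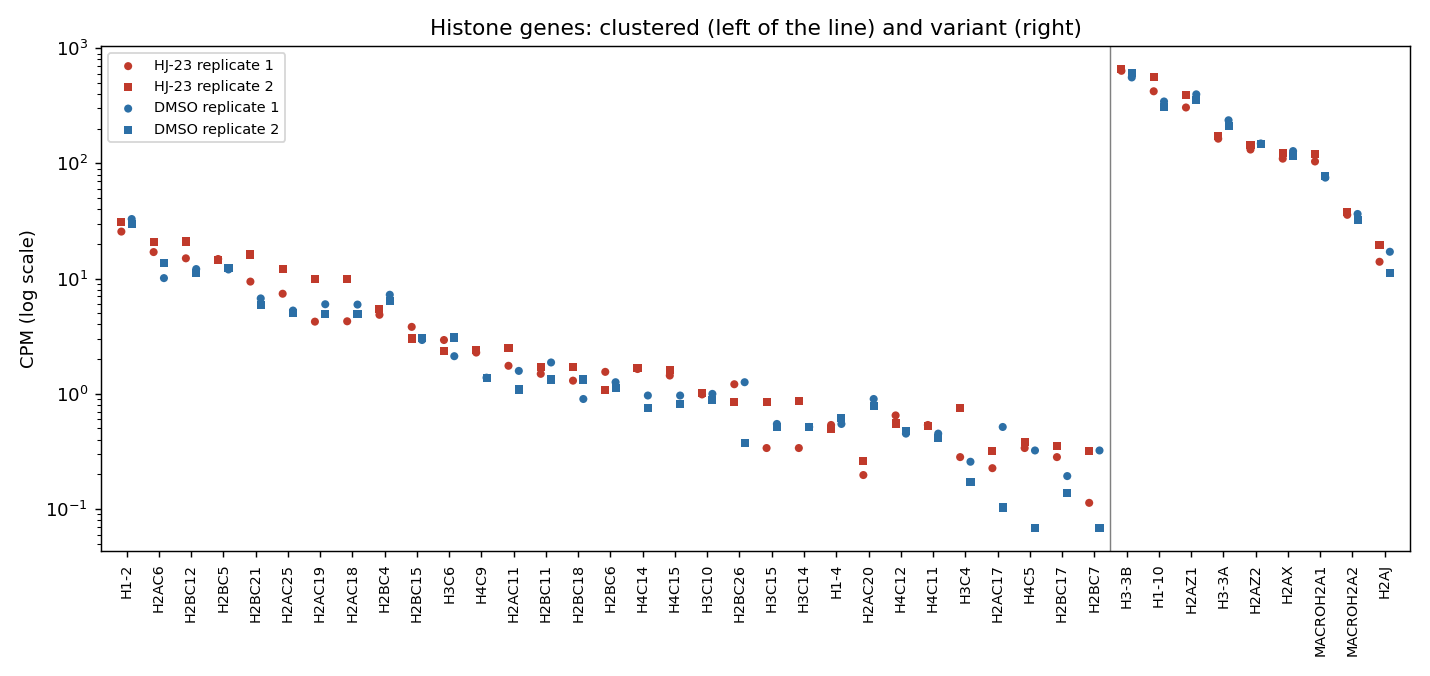
CPM on a log scale of histone genes past the count rule, in each of the 4 libraries (HJ-23 left of DMSO for each gene), sorted by mean level within the clustered genes (left of the line) and the variant genes (right). The clustered genes run from H1-2 at about 30 CPM to below 1 CPM, and the variant genes from H3-3B at 558 CPM or more in each library down to H2AJ.

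Of the 29 clustered genes tested, 24 had a positive and 5 a negative log2 fold change, with a median of 0.30. These counts include both genes of 4 pairs with identical reading frames, and the clustered median was 0.27 with identical copies pooled. Of the 10 variant genes 6 were positive and 4 negative, with a median of 0.13. At an unadjusted p below 0.05, 6 clustered genes were higher and 1 (H2AC20, which entered the set through its DMSO counts alone) was lower in HJ-23, and 3 variant genes were higher and 1 was lower, where 6.77% of all genes were higher and 5.25% lower. The difference of the medians, 0.17, was described and not tested. The clustered median was 0.65 when HJ-23 replicate 1 and 0.46 when DMSO replicate 1 was left out, and 0.17 after correction for GC content and length. The variant median was -0.03 when DMSO replicate 2 and -0.00 when HJ-23 replicate 2 was left out, and 0.01 after that correction, and the difference reached 0.51 without HJ-23 replicate 1. The standard errors of single clustered genes ran from 0.17 to 0.91, at or above that size. Not every clustered member could be measured: 18 had 0 counts in all 4 libraries, which allows up to 0.17 to 0.205 CPM (6 counts, since the even low counts fit a count of each mate; counting error only), and 21 had a count but did not pass the rule.

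Among the linker histones, both clustered genes tested had negative log2 fold changes, and neither passed the adjusted threshold. H1-2, the highest clustered gene, had 25.6 and 30.8 CPM in HJ-23 libraries and 32.9 and 29.7 CPM in DMSO libraries. Its libraries overlapped, and its log2 fold change was -0.15 with a standard error of 0.18 (adjusted p = 0.757). It was -0.04 when HJ-23 replicate 1 and -0.32 when HJ-23 replicate 2 was left out, and -0.30 after correction for GC content and length. H1-4 was near the count minimum, at 19 and 17 counts in HJ-23 libraries and 17 and 18 counts in DMSO libraries, with a log2 fold change of -0.17 and a standard error of 0.41 (-0.36 after that correction). The genes H1-1, H1-3 and H1-5 had no count in any library.

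H1-10 (H1X), a variant linker histone that is made through the cell cycle, had 423 and 560 CPM in HJ-23 libraries and 345 and 308 CPM in DMSO libraries. Both HJ-23 libraries were above the DMSO libraries. The log2 fold change was 0.59 with a standard error of 0.18 (unadjusted p = 0.0165, adjusted p = 0.328), and it was 0.35 without HJ-23 replicate 2 and 0.33 after correction for GC content and length. Its annotated transcript has a GC content of 68.6%. By counts per kilobase of annotated transcript, a scale on which genes can be set side by side, H1-10 stood at place 193 of 14047 genes, by the mean of the 4 libraries, and H1-2 at place 1475. The annotated transcript of H1-2 ends at its stop codon, which may raise its value per kilobase in every library alike.

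The clustered H2A and H2B genes held most of the clustered counts. The H2A genes summed to 35.5 and 56.3 CPM in HJ-23 libraries and 31.1 and 31.6 CPM in DMSO libraries, a log2 ratio of 0.55. That sum includes both H2AC18 and H2AC19, whose reading frames are identical. The H2B genes summed to 54 and 66.5 CPM in HJ-23 libraries and 46.9 and 43.3 CPM in DMSO libraries, a log2 ratio of 0.42. In both families HJ-23 replicate 2 was the highest of the 4 libraries.

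H2BC21, which codes for a replicative type of H2B and lies on chromosome 1, had the most positive log2 fold change of the histone genes tested. It had 9.42 and 16.2 CPM in HJ-23 libraries and 6.73 and 5.95 CPM in DMSO libraries. The groups did not overlap, and the log2 fold change was 1.02 with a standard error of 0.29 (unadjusted p = 0.0137, adjusted p = 0.314 with edgeR and 0.119 with DESeq2). Without HJ-23 replicate 2 it was 0.55. H2BC12 on chromosome 6 had 15 and 21 CPM in HJ-23 libraries and 12.1 and 11.2 CPM in DMSO libraries, a log2 fold change of 0.63 with a standard error of 0.22 (adjusted p = 0.367). This value was 0.35 without HJ-23 replicate 2, and its reading frame is 98.95% identical to that of H2BC12L, with which it could share reads. H2BC5 had 14.8 and 14.6 CPM in HJ-23 libraries and 12 and 12.3 CPM in DMSO libraries, so that libraries within a group lay close together, with a log2 fold change of 0.27 and a standard error of 0.17. H2BC4, next to H2AC6, had a negative value, at 4.85 and 5.4 CPM in HJ-23 libraries and 7.24 and 6.36 CPM in DMSO libraries, with a log2 fold change of -0.41 and a standard error of 0.20 (adjusted p = 0.468).

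Of the H2A genes, H2AC6 had 17 and 20.7 CPM in HJ-23 libraries and 10.1 and 13.7 CPM in DMSO libraries. The HJ-23 libraries were above the DMSO libraries, with a log2 fold change of 0.66, a standard error of 0.22 and an adjusted p of 0.360. H2AC25, a gene of a separate small histone cluster on chromosome 1, had 7.39 and 12.1 CPM in HJ-23 libraries and 5.28 and 5.06 CPM in DMSO libraries. Its log2 fold change was 0.92 with a standard error of 0.28 (adjusted p = 0.330), and 0.49 without HJ-23 replicate 2. The pair H2AC18 and H2AC19, chosen after their values were seen, have identical reading frames, and their counts were 151 and 340 against 150 and 340 in HJ-23 libraries and 185 and 144 against 186 and 145 in DMSO libraries. Reads of such copies cannot be assigned to 1 gene, so these are not separate measurements, and HJ-23 replicate 2 alone was high. Among the tested members there were 4 pairs with identical reading frames (also H3C14 and H3C15, H4C11 and H4C12, and H4C14 and H4C15).

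The lowest log2 fold change of the set was that of H2AC20, also chosen after its values were seen. It had 7 and 9 counts in HJ-23 libraries and 28 and 23 counts in DMSO libraries, a log2 fold change of -1.86 with a standard error of 0.45 (unadjusted p = 0.00633, adjusted p = 0.275). It passed the count rule through the DMSO libraries alone, so a lower value in HJ-23 was built into its presence in the set. In the same way H2BC17, with 10 and 12 counts in HJ-23 libraries and 6 and 4 counts in DMSO libraries, and H3C4, with 10 and 26 counts in HJ-23 libraries and 8 and 5 counts in DMSO libraries, passed through the HJ-23 libraries alone, and neither was tested, since both fell to the filter on low counts. Just inside the rule stood H2AC17 (8 and 11 counts in HJ-23, 16 and 3 in DMSO) and H2BC7 (4 and 11 in HJ-23, 10 and 2 in DMSO). Just outside it, with 1 library at 10 counts or more, stood H2AC14 (4 and 13 in HJ-23, 9 and 7 in DMSO), H2AC7 (5 and 3 in HJ-23, 2 and 12 in DMSO) and H3C2 (6 and 7 in HJ-23, 8 and 10 in DMSO).

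The clustered H3 genes were few and low. They summed to 5.25 and 6.51 CPM in HJ-23 libraries and 4.92 and 5.67 CPM in DMSO libraries, and the 4 tested genes had log2 fold changes of 0.03 to 0.23. H3C6 had 2.93 and 2.35 CPM in HJ-23 libraries and 2.12 and 3.08 CPM in DMSO libraries. Its log2 fold change was 0.03, and 0.12 after correction for GC content and length. H3C10 had 0.987 and 1.02 CPM in HJ-23 libraries and 0.998 and 0.889 CPM in DMSO libraries. In both genes the libraries of the groups overlapped.

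The 6 clustered H4 genes tested were the clustered family in which every member lay higher in both HJ-23 libraries than in both DMSO libraries, with log2 fold changes of 0.30 to 0.93 and a median of 0.77, where 24.8% of all genes tested lay so. H4 is the core histone that has no variant genes of its own in this set, and its genes code for near-identical proteins. All 15 clustered H4 genes together had 259 and 266 counts in HJ-23 libraries and 155 and 127 counts in DMSO libraries, or 7.52 ± 0.3 CPM in HJ-23 and 4.66 ± 0.458 CPM in DMSO (SD, n = 2 libraries each). H4C9 had 2.28 and 2.41 CPM in HJ-23 libraries and 1.38 and 1.37 CPM in DMSO libraries, with a log2 fold change of 0.77 and a standard error of 0.27 (unadjusted p = 0.0295, adjusted p = 0.371). H4C14 had 1.64 and 1.66 CPM in HJ-23 libraries and 0.966 and 0.752 CPM in DMSO libraries, with a log2 fold change of 0.93 and a standard error of 0.33 (unadjusted p = 0.0285, adjusted p = 0.368). The libraries of a group lay close together in both genes, and leaving out any 1 library left values of 0.71 to 0.79 for H4C9 and 0.74 to 1.13 for H4C14. H4C14 shares its reading frame with H4C15, and both carry the same stem-loop with the same flanks. H4C11 and H4C12 also have identical reading frames, so the 6 genes are not 6 independent measurements. Some rest on few counts. H4C5 had 12 and 13 counts in HJ-23 libraries and 10 and 2 in DMSO libraries. H4C11 had 19 and 18 counts in HJ-23 and 14 and 12 in DMSO, and H4C12 had 23 and 19 in HJ-23 and 14 and 14 in DMSO.

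**Figure D3:**
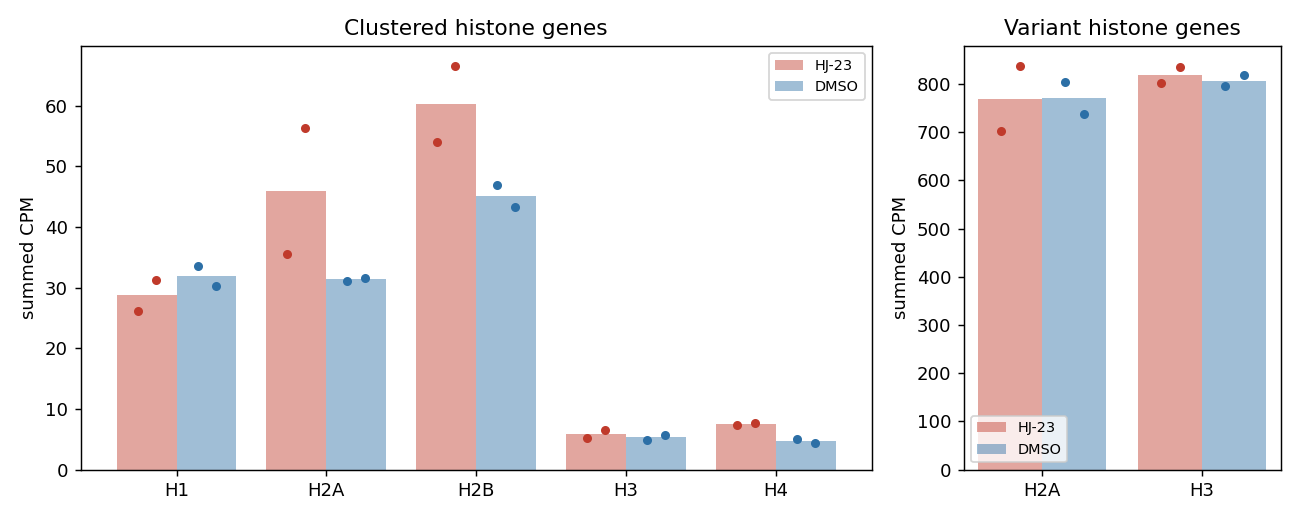
Summed CPM by family for the clustered genes (left) and the variant H2A and H3 genes (right), with bars at the mean of the HJ-23 libraries (left bar) and of the DMSO libraries (right bar) and a point per library; the scales of the panels differ. The H4 sum of the clustered genes was 7.31 and 7.73 CPM in HJ-23 and 4.99 and 4.34 CPM in DMSO, and the variant H3 sum was 802 and 835 CPM in HJ-23 and 795 and 818 CPM in DMSO.

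Among the core histone variants, MACROH2A1 had the most positive and H3-3A the most negative log2 fold change, neither past the adjusted threshold. MACROH2A1, whose protein carries a large macro domain and is known from silent chromatin such as the inactive X chromosome, had 104 and 121 CPM in HJ-23 libraries and 75.3 and 77.2 CPM in DMSO libraries. It averaged 112 ± 12 CPM in HJ-23 and 76.3 ± 1.34 CPM in DMSO (SD, n = 2 libraries each), with a log2 fold change of 0.55 and a standard error of 0.15 (unadjusted p = 0.00896, adjusted p = 0.299 with edgeR and 0.118 with DESeq2). Its relative MACROH2A2, named after its values were seen, had 35.8 and 37.7 CPM in HJ-23 libraries and 36.4 and 32.5 CPM in DMSO libraries. Those libraries overlapped between the groups. Per kilobase, MACROH2A1 made up 67.2% and 69.4% of the macroH2A sum in HJ-23 libraries and 59.5% and 62.8% in DMSO libraries.

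The H3-3A and H3-3B genes code for the same protein, and their log2 fold changes had opposite signs. H3-3A had 164 and 173 CPM in HJ-23 libraries and 237 and 213 CPM in DMSO libraries, a log2 fold change of -0.41 with a standard error of 0.14 (unadjusted p = 0.0231, adjusted p = 0.356). H3-3B had 637 and 662 CPM in HJ-23 libraries and 558 and 605 CPM in DMSO libraries, a log2 fold change of 0.16 with a standard error of 0.13 (adjusted p = 0.644), which was 0.27 after correction for GC content and length and 0.10 without DMSO replicate 1. All variant H3 genes together, nearly all from this pair, had 802 and 835 CPM in HJ-23 libraries and 795 and 818 CPM in DMSO libraries. Per kilobase, H3-3A made up 34.8% and 35.1% of the pair in HJ-23 libraries and 46.7% and 42.1% in DMSO libraries, and the groups did not overlap.

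H2AZ1 and H2AZ2 code for the H2A.Z proteins, which mark nucleosomes at promoters, and H2AX is the variant that is phosphorylated at DNA breaks. H2AZ1 had 306 and 392 CPM in HJ-23 libraries and 398 and 353 CPM in DMSO libraries, with a log2 fold change of -0.11 and a standard error of 0.17. Its log2 fold change was -0.06 after correction for GC content and length. H2AZ2 had 132 and 145 CPM in HJ-23 libraries and 149 and 148 CPM in DMSO libraries, with a log2 fold change of -0.10 and a standard error of 0.13. H2AX, named after its values were seen, had 110 and 123 CPM in HJ-23 libraries and 128 and 116 CPM in DMSO libraries. None of the 3 passed the test, at adjusted p-values of 0.786 to 0.863, and leaving out HJ-23 replicate 1 turned the value of H2AZ1 to 0.04. H2AJ, the lowest variant past the rule and likewise named with its values known, had 14 and 19.4 CPM in HJ-23 libraries and 17.1 and 11.1 CPM in DMSO libraries, which overlapped. Of the 11 variant genes that did not pass the rule, 3 had no count in any library and the others reached at most 8 counts.

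Clustered genes whose annotated transcript continues more than 100 bases past the stem-loop were set beside the others, a split made with values known and not tested. Of these 17 genes, 16 had a positive and 1 a negative log2 fold change, with a median of 0.43. Of the other 12 tested, 8 were positive and 4 negative, with a median of 0.15. These others are not simply genes with short ends. They include H3C6, with 1908 bases after the stop codon and no motif match, and genes whose annotated transcript ends at the stop codon. They also include H2AC20 (-1.86), which entered the set through its DMSO counts alone. By position, the 18 tested genes on chromosome 6 had a median of 0.17 and the 11 on chromosome 1 a median of 0.38. By level, the 9 genes with a mean of 5 CPM or more had a median of 0.38 and the 20 below it a median of 0.21. These splits overlap in their members, and the ends of the transcripts come from the annotation, not from the libraries.

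Many H2A and H2B genes lie in pairs with adjacent starts, read in opposite directions from the stretch between them. Of 12 such pairs among all histone genes, which include H3C12 with H2BC17, 5 had both genes past the count rule. The genes below are named by that position. H2BC21 and H2AC20, with 323 bases between their starts, had log2 fold changes of 1.02 and -1.86. H2AC20 passed the count rule through the DMSO libraries alone, so a lower value in HJ-23 was built into its presence in the set. H2AC6 and H2BC4, with 219 bases between their starts, had log2 fold changes of 0.66 and -0.41, and in each gene the groups did not overlap. H2AC11 and H2BC11 (292 bases) had 0.67 and 0.00. H2AC25 and H2BC26 (234 bases) had 0.92 and 0.33, with H2BC26 at 43 and 29 counts in HJ-23 libraries and 39 and 11 counts in DMSO libraries. The pair of H2AC17 and H2BC17 (314 bases) had at most 16 counts in any library. H2BC12 had 533 and 724 counts in HJ-23 libraries and 375 and 327 in DMSO libraries, while its partner H2AC12, 331 bases away, had 2 and 4 counts in HJ-23 libraries and 2 and 4 in DMSO libraries. The difference between the genes of a pair was not tested.

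**Figure D4:**
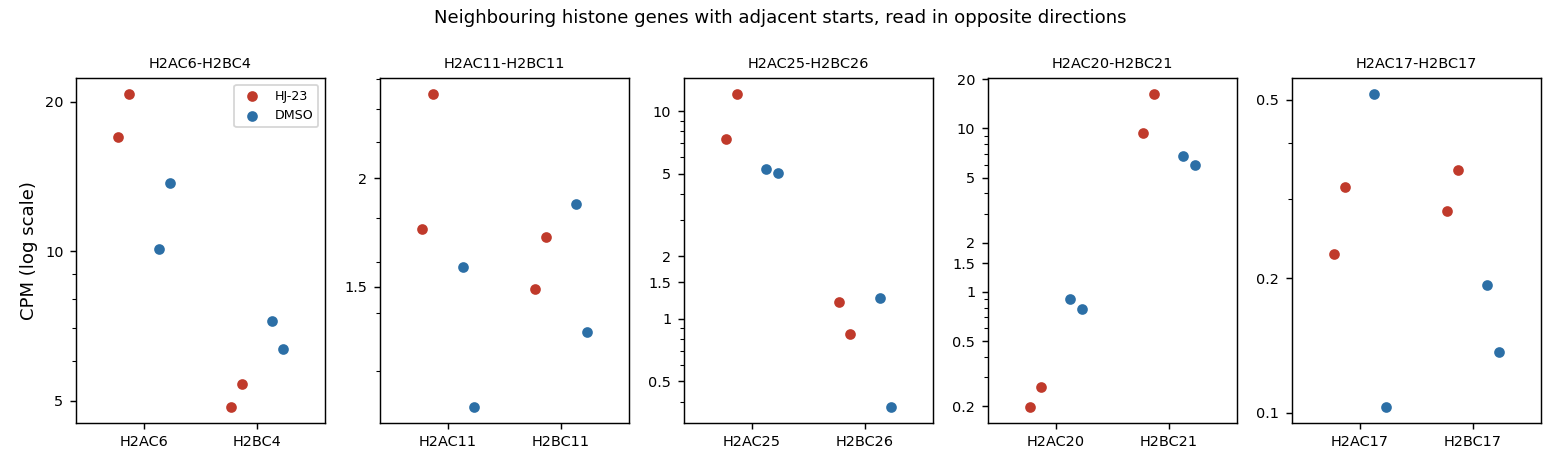
CPM on a log scale, each panel with its own range, of the 5 pairs of neighbouring H2A and H2B genes with both genes past the count rule, with a point per library and HJ-23 left of DMSO. In the pair of H2AC6 and H2BC4 the HJ-23 points lie above the DMSO points for H2AC6 (17 and 20.7 against 10.1 and 13.7 CPM) and below them for H2BC4 (4.85 and 5.4 against 7.24 and 6.36 CPM). H2AC20 entered the set through its DMSO counts alone.

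Promoters of the clustered genes are shown for H2BC21, H2BC12 and H2AC6, 3 of the clustered H2A and H2B genes that lay higher in HJ-23, chosen with their values known, because their letters show the elements that the family shares. They are the 250 bases before the gene's start in RefSeq (GRCh38.p14), 5′ to 3′ along the gene. Capitals mark TATAAA (the TATA box), CCAAT (the CCAAT box) and ATTTGCAT (the octamer), on either strand.
H2BC21 (chr1:149886683-149886932, minus strand): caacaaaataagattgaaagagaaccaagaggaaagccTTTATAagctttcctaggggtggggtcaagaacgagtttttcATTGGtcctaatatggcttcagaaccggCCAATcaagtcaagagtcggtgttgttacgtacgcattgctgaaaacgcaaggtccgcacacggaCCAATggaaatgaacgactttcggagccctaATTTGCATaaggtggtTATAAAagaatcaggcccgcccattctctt
H2BC12 (chr6:27146859-27147108, minus strand): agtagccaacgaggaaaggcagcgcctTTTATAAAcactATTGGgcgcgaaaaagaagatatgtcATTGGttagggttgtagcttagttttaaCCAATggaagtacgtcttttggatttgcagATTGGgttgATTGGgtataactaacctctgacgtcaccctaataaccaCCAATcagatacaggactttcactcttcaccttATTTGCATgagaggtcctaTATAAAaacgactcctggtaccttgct
H2AC6 (chr6:26123922-26124171, plus strand): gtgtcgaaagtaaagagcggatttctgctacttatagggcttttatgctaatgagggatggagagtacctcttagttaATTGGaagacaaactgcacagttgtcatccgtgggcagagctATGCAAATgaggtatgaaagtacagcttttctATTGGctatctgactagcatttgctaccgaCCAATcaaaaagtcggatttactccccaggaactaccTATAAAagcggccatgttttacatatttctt
The octamer, bound by POU2F1 (OCT1), stood in 77.8% of the 18 clustered H2B promoters and 68.8% of the 16 clustered H2A promoters in the table, against 1.66% of all 27305 promoters. It was found in none of the 6 clustered H1 and none of the 13 clustered H4 promoters. The CCAAT box stood in every clustered H1, H2A, H2B and H3 promoter in the table and in 23.1% of the H4 promoters. It stood in 84.4% of the 64 clustered and 84.2% of the 19 variant promoters, against 33% of all promoters. TATAAA stood in 65.6% of the clustered and 36.8% of the variant promoters, against 11.1% of all. The H1 box AAACACA, searched on both strands and not overlapping the other motifs in its letters, stood in each of the 6 clustered H1 promoters and in 4.95% of all. Of the 91 histone genes, 83 had a promoter in the table.

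Partners of the histone genes were taken from 6 lists of factors that transcribe histone genes, process, translate and degrade their mRNA, carry histone proteins to chromatin, or serve DNA replication. None of the 120 partner genes passed the adjusted threshold under edgeR, the smallest adjusted p being 0.0985. At an unadjusted p below 0.05, 3 were higher and 11 lower in HJ-23, where 6.77% and 5.25% of all genes were. The median log2 fold change was -0.04, with 51 positive and 69 negative values.

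Of the transcription list (14 genes, 5 positive and 9 negative, median -0.12), NPAT, the coactivator that cyclin E and CDK2 phosphorylate at histone loci, had 8.86 and 5.84 CPM in HJ-23 libraries and 13 and 17.9 CPM in DMSO libraries. Both HJ-23 libraries lay below both DMSO libraries, with a log2 fold change of -1.07 and a standard error of 0.28 (unadjusted p = 0.00881). Its adjusted p was 0.297 with edgeR and 0.0435 with DESeq2. With 1 DMSO library left, assumed to vary like the HJ-23 pair, it was 0.016 without DMSO replicate 1 and 0.482 without DMSO replicate 2. CASP8AP2 (FLASH), the scaffold of the histone locus body, had 17.7 and 9.39 CPM in HJ-23 libraries and 14.8 and 21.4 CPM in DMSO libraries, which overlapped. CCNE2 (a cyclin E) had 5.08 and 3.57 CPM in HJ-23 libraries and 5.86 and 5.88 CPM in DMSO libraries, and E2F1 had 15.1 and 20.8 CPM in HJ-23 libraries and 15.6 and 13.1 CPM in DMSO libraries, neither past the test. POU2F1, named after its values were seen, had 56.1 and 45.3 CPM in HJ-23 libraries and 30 and 26 CPM in DMSO libraries, a log2 fold change of 0.86 with a standard error of 0.19 (adjusted p = 0.236 with edgeR and 0.0134 with DESeq2).

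The 21 genes of 3′-end processing divided into 10 positive and 11 negative values with a median of -0.02, and the 21 of translation and decay into 9 positive and 12 negative with a median of -0.03. SLBP had 48.3 and 44.7 CPM in HJ-23 libraries and 50.3 and 54.3 CPM in DMSO libraries, a log2 fold change of -0.17 with a standard error of 0.15. LSM11, a protein of the U7 ring, had 26.9 and 27.2 CPM in HJ-23 libraries and 32.6 and 31.5 CPM in DMSO libraries, a log2 fold change of -0.24 with a standard error of 0.16 that was -0.06 after correction for GC content and length. ZNF473 (ZFP100), which joins the U7 particle to the SLBP-bound stem-loop, had 8.63 and 6.48 CPM in HJ-23 libraries and 10.2 and 14.1 CPM in DMSO libraries, a log2 fold change of -0.69 with a standard error of 0.25 (adjusted p = 0.384). All 3 were lower in both HJ-23 libraries than in both DMSO libraries, where 21.2% of all genes tested lay so, and none passed the adjusted threshold. Over the whole processing list of 21 genes, 4 lay lower in this way and 5 lay higher in both HJ-23 libraries. ERI1, the exonuclease that trims the stem-loop end, had 57.7 and 26.7 CPM in HJ-23 libraries and 26.2 and 57.6 CPM in DMSO libraries, a spread within each group that leaves no direction. SMG1, a kinase of mRNA decay named after its values were seen, had 94.4 and 74.3 CPM in HJ-23 libraries and 138 and 174 CPM in DMSO libraries, a log2 fold change of -0.89 (adjusted p = 0.233 with edgeR and 0.00504 with DESeq2).

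Chaperones of replicative H3 and H4 had a median of -0.06 over 16 genes (5 positive and 11 negative). ASF1B, which hands H3 and H4 to the assembly factors, had 48.3 and 58 CPM in HJ-23 libraries and 64.5 and 61 CPM in DMSO libraries, with a log2 fold change of -0.24 and a standard error of 0.16. It was -0.13 without HJ-23 replicate 1, -0.41 after correction for GC content and length and -0.40 when HJ-23 replicate 2 was left out. CHAF1A, the large subunit of the replication-coupled assembly factor CAF-1, had 33.9 and 41 CPM in HJ-23 libraries and 28.8 and 28.4 CPM in DMSO libraries, with a log2 fold change of 0.39 and a standard error of 0.17 that was 0.22 without HJ-23 replicate 2 and 0.24 after correction for GC content and length. The other CAF-1 subunit tested by name, CHAF1B, and the H3 and H4 carrier NASP had log2 fold changes of -0.04 and -0.20, with libraries that overlapped. IPO4, an importin that carries H3 and H4 into the nucleus, was named after its values were seen and had 27.2 and 33.4 CPM in HJ-23 libraries and 10.7 and 8.31 CPM in DMSO libraries. Its log2 fold change was 1.68 with a standard error of 0.21 (adjusted p = 0.0985 with edgeR and 9.8e-08 with DESeq2), and it overlaps another annotated gene on its own strand, so its counts are uncertain.

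Factors that place histone variants had a median of 0.03 over 25 genes (13 positive and 12 negative). The H3-3 chaperones HIRA and DAXX had log2 fold changes of 0.32 and 0.28, with DAXX at 128 and 139 CPM in HJ-23 libraries and 116 and 104 CPM in DMSO libraries and HIRA overlapping. HIRA was at 0.09 without HJ-23 replicate 2, and leaving out DMSO replicate 1 gave 0.10 where leaving out DMSO replicate 2 gave 0.56, and DAXX at 0.18 without DMSO replicate 2 and at 0.18 after correction for GC content and length. ATRX, the partner of DAXX, had 42.1 and 19.4 CPM in HJ-23 libraries and 28.7 and 62.2 CPM in DMSO libraries, which overlapped, and its log2 fold change of -0.56 was -0.25 after that correction. SRCAP, the remodeller that exchanges H2A for H2A.Z, had 79.4 and 86.9 CPM in HJ-23 libraries and 109 and 104 CPM in DMSO libraries, a log2 fold change of -0.36 with a standard error of 0.14 (adjusted p = 0.398), and ANP32E, which removes H2A.Z, had a log2 fold change of -0.13 with a standard error of 0.19. CENPA, the H3 variant of centromeres whose symbol lies outside the rule, had 27.5 and 27.4 CPM in HJ-23 libraries and 26.5 and 27.2 CPM in DMSO libraries. Its chaperone HJURP had 119 and 43 CPM in HJ-23 libraries and 49.2 and 51.4 CPM in DMSO libraries, so that HJ-23 replicate 1 alone was high, and its log2 fold change was 0.68 with all libraries and -0.25 without HJ-23 replicate 1.

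The 25 genes of S phase and DNA replication had a median of -0.15, with 10 positive and 15 negative values. PCNA, the sliding clamp of replication, had 100 and 99.1 CPM in HJ-23 libraries and 92.4 and 103 CPM in DMSO libraries. RRM2, the ribonucleotide reductase subunit that is made in S phase, was named after its values were seen and had 218 and 196 CPM in HJ-23 libraries and 299 and 297 CPM in DMSO libraries, a log2 fold change of -0.53 with a standard error of 0.13 (adjusted p = 0.279 with edgeR and 0.0672 with DESeq2). The clustered histone sum was higher and these replication genes were on balance lower in HJ-23, and the relation between them was not tested.

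**Figure D5:**
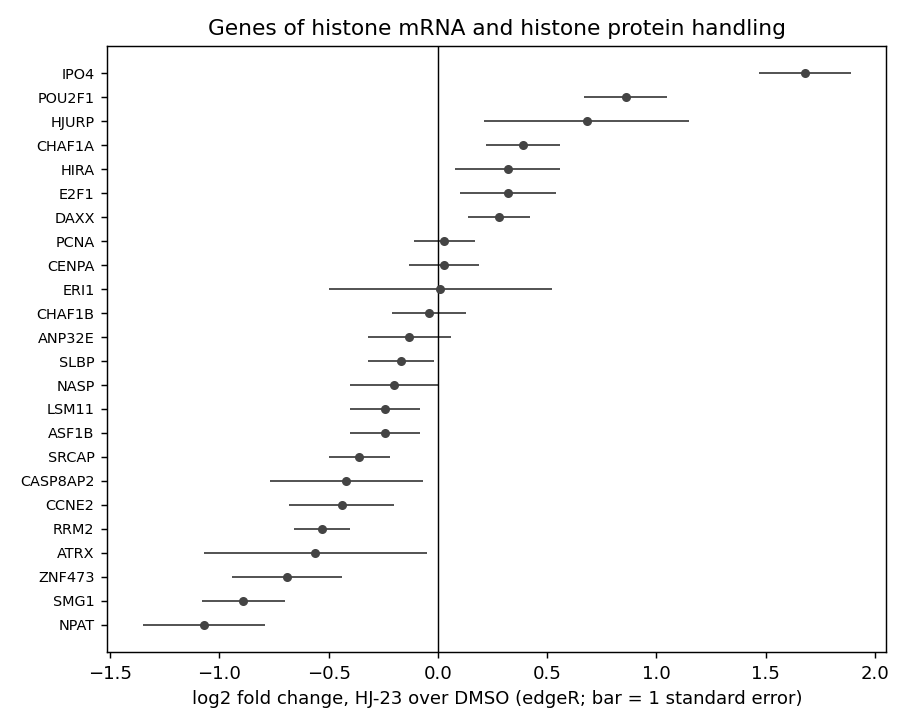
The log2 fold change, HJ-23 over DMSO, with a bar of 1 standard error, of the 20 partner genes named by rule and of IPO4, POU2F1, SMG1 and RRM2, sorted from the most positive to the most negative. IPO4 lies at 1.68 and NPAT at -1.07, and the widest bars are those of ERI1, ATRX and HJURP, whose libraries within a group differed most.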

How the data were processed

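The authors deposited 1 table of whole-number counts per gene for each library, without normalization, as the values show. Per the submitters' processing notes, the tools were HISAT2, RSEM, bedtools, Trimmomatic and FastQC, with no roles; the genome build, the strand setting and the RNA selection are not stated in the labels. Low counts were mostly even (69.6% to 72.3% of values from 1 to 8), which fits a count of each mate of a read pair. Of the 20263 identifiers, 20148 took a symbol from a gene name table, 76 from GENCODE 29 alone and 39 had none. Older histone symbols were read as current ones through RefSeq synonyms.

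Groups, and with them the direction of each fold change, come from the titles. Samples with a DMSO title have counts marked D, and samples with an HJ-23 title have counts marked C. Those marks do not by themselves settle which group was treated, so the sign of every fold change depends on the titles. The main test used edgeR 4.0.16 (R 4.3.3) with TMM factors (0.983 to 1.03), filterByExpr (14062 genes), the robust legacy quasi-likelihood F-test, and Benjamini-Hochberg adjustment over all genes tested at 0.05. The model had 2 residual and 3.98 prior degrees of freedom. Fold changes are HJ-23 over DMSO, the standard error is their absolute value over the root of F, and CPM uses the TMM-scaled total. The fit was also run on counts simulated from its own estimates with planted changes. That run checks the procedure and cannot show how the real libraries vary. Alternatives used DESeq2 1.42.0, limma 3.58.1 and a GC and length correction with mgcv.

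The members and the lists were chosen with earlier results of these data known. Named histone genes were the 2 highest in mean CPM of each family and class, and members with a mean of 5 CPM or more whose groups do not overlap, up to 6 in each direction. That gave 19 genes, 1 of which is not reported here, and 20 partner genes were listed by name. No set test was run.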

Additional observations from a re-analysis of the deposited data

How the results depend on the processing

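No histone gene was called lower in any alternative run, and histone genes were called higher (5 genes) in the crossed replicate block alone, which pairs HJ-23 replicate 1 with DMSO replicate 2 and was added after same-numbered libraries were seen to deviate in opposite directions (correlation -0.182); with it 454 genes were called higher and 512 lower. The titles' numbers are not stated to mark shared cultures. With them as a replicate block, 136 genes were called higher and 158 lower, against 8 and 4 without it, and 0 histone genes, with a smallest adjusted p of 0.0629 (H2BC21). All genes called higher and lower numbered 18 and 13 without a filter, 1 and 0 with a filter at 10 CPM, 22 and 13 with the GC and length correction, 0 and 0 with that correction and the replicate block, 161 and 150 with DESeq2, and 0 to 112 and 0 to 161 when a library was left out.

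Histone genes with an unadjusted p below 0.05 and higher in HJ-23 numbered 5 of the 14 left by a filter at 10 CPM, against 9 of the 39 in the main fit. Those lower numbered 1 with a filter at 10 CPM, with the replicate block, and with that block and the GC and length correction, and 1 to 2 when a library was left out (1 without either DMSO replicate), against 2.

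The clustered median of 0.30 was 0.45 with a filter at 10 CPM, 0.17 with the GC and length correction, 0.16 with that and the replicate block, and 0.21 to 0.65 when a library was left out (0.65 without HJ-23 replicate 1, 0.46 without DMSO replicate 1). Of the clustered genes, the filter at 10 CPM kept only H1-2, H2AC6, H2BC12 and H2BC5. The variant median of 0.13 was 0.01 and 0.02 with these corrections and -0.03 to 0.14 when a library was left out (-0.00 without HJ-23 replicate 2, -0.03 without DMSO replicate 2). The difference of the medians, 0.17, was 0.20 without a filter, 0.33 with a filter at 10 CPM, 0.14 with the replicate block, 0.20 with DESeq2, 0.13 with limma-trend, 0.20 for members with 10 counts in all 4 libraries, 0.32 with classes set by the stem-loop motif, and 0.25 to 0.51 when a library was left out. The log2 ratio of the summed levels was 0.10 to 0.50 for clustered and 0.14 to 0.32 for variant genes when a library was left out. The block and limma fits give no summed level.

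Signs turned for H3C6 (-0.22 to 0.29 when a library was left out), H3C10 (-0.02 to 0.17) and H2AZ1 (-0.32 to 0.04); the other named histone genes kept their sign in the alternatives run. Among partners they turned when a library was left out for ERI1 (-0.67 to 0.66, and -0.00 with DESeq2 and with its size factors), CHAF1B (-0.17 to 0.04), NASP (-0.43 to 0.04), ATRX (-1.24 to 0.07), ANP32E (-0.41 to 0.07), HJURP (-0.25 to 1.21) and PCNA (-0.05 to 0.08). NPAT was called with the replicate block (adjusted p = 0.0258), with DESeq2 and without DMSO replicate 1, and not with the GC and length correction (0.122) or with that and the block (0.396). The crossed block called 3 of the named partners, NPAT among them. A fit that leaves out a library assumes that the lone library of a group varies like the other group. The cause of these changes was not tested. Genes under about 1 CPM rest on few counts, which limits what could be called.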
